A study of Mus musculus with 12 samples.

Results

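Mouse embryonic stem (ES) cell RNA was read on two-colour arrays of 60-base oligonucleotide probes, and 223 probes whose signal moved with time after passaging in every line examined are described here, 135 that rose and 88 that fell. They were chosen from a deposited table of 25674 probes, of which they are 0.869%, and the array itself carries 42006 probes. A probe was taken if the mean of its 2 arrays at 72 h minus that at 18 h was at least 0.5 on the log2 scale of the table (rising), or at most -0.5 (falling), in each of 3 lines. Of 155 probes past the rising threshold, 20 were dropped because both knockout clones already differed from wild type (WT) by at least 1.5-fold, a log2 difference of 0.585, in the same direction at both times, and 10 of 98 were dropped from the falling side for the same reason. The choice therefore rests on the measured time changes and on clone-minus-WT differences, and these are given as descriptions without a test.

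The lines were the parental WT line #3 and the BAF250b-/- clones #4 and #7, each harvested at 18 h and at 72 h after passaging, with 2 arrays in each of the 6 groups. All were of a hybrid B6, 129 and CD1 background with blastocysts given as the developmental stage, and the labels also give an age of 2 months without saying what it refers to. One WT line and 2 clones stand for the genotypes, so clone and genotype cannot be fully told apart. The study's design text speaks of biological replication, and in 5 groups the arrays carry different letters, A and B, after the line number. Both WT arrays of the 18 h group carry A, and what the letters mark is not stated, so the spread behind the p-values may be partly technical. Every array set the Cy3-labelled sample against a Cy5-labelled reference pool made from 11 mouse cell lines.

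ES cells are pluripotent cells of the early embryo that renew themselves in culture. Passaging breaks colonies apart and reseeds the cells, and over the following days the colonies grow denser, use up medium and signal more to their neighbours. BAF250b, the product of Arid1b, is a subunit of a form of the SWI/SNF complex, which moves nucleosomes with energy from ATP and is part of how ES cells keep or leave the pluripotent state. The files used here pair no probe with a gene, so probes are named by their identifiers, and the Arid1b transcript, markers of pluripotency and of other cell types, and pathway lists were not analysed here.

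The first 5 probes in each direction, ordered by the smallest of their 3 table changes, are shown as the sequences printed on the array, because they lead the rule's own ordering; the fall of Z00051128-1 in WT rests there on a marked spot, as given with its values. Capitals mark AATAAA, the hexamer known as a signal for cutting and polyadenylation near the end of a transcript, and a probe that holds it is shown as the 30 bases around it. The rising probes come first and the falling probes follow.
Z00027126-1: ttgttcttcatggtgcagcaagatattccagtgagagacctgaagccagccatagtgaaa
Z00026255-1: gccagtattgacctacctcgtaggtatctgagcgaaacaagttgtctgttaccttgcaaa
Z00030162-1: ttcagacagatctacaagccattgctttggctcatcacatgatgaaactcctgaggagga
Z00000952-1: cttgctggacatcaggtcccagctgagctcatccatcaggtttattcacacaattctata
Z00020794-1: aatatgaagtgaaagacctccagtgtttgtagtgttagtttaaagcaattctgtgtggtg
Z00007495-1: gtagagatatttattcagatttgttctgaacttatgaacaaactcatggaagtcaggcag
Z00034079-1: ttgttggctgtatttaccaggatAATAAAg
Z00051128-1: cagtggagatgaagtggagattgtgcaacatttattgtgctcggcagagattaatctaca
Z00036340-1: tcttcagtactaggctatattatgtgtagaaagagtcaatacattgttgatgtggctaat
Z00063583-1: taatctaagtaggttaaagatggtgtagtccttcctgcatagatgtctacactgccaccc

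Probes at the extremes of the ratio between the clones' change and the WT change are shown next, because they differ most from the common pattern. The first 3 rose more in WT than in either clone, Z00025577-1 rose most in the clones relative to WT, and Z00056888-1 fell most in the clones relative to WT. Capitals again mark AATAAA.
Z00002099-1: aaaagagatggaAATAAAaagacctcagag
Z00025587-1: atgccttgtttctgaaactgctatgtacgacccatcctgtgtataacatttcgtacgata
Z00034825-1: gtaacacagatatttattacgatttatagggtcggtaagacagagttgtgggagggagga
Z00025577-1: cagagacattccAATAAActcgttaagcct
Z00056888-1: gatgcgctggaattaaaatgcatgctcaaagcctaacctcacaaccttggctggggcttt

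Some probes share a stretch of bases, and these sets show how far a change depends on the probe. A shared stretch does not show that the probes read the same transcript. Capitals mark the bases that the probes of a set share. In the first set, member Z00073717-1 is followed by probes Z00017400-1 and Z00072996-1, which are outside the deposited table. In the second set, Z00027205-1 is a member and Z00060656-1 is a table probe that is no member. In the third set, Z00064826-1 is a member, Z00023230-1 lies outside the table, and Z00035398-1 is a table probe of the opposite strand, with its complementary stretch in capitals.
Z00073717-1: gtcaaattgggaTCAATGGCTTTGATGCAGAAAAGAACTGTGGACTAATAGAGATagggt
Z00017400-1: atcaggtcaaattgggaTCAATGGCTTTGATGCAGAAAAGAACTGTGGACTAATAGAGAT
Z00072996-1: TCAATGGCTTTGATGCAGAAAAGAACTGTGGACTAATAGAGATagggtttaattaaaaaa
Z00027205-1: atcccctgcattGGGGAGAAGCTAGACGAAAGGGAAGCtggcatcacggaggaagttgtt
Z00060656-1: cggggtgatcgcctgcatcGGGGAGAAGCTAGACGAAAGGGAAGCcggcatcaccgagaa
Z00064826-1: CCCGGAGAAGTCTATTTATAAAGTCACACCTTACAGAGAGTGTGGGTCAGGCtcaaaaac
Z00023230-1: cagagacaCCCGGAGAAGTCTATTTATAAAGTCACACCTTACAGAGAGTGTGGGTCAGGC
Z00035398-1: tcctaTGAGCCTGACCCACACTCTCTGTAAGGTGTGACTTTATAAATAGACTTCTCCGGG

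Levels below are log2 ratios of the sample to the reference pool, recomputed from the scanner intensities, and a change is the 72 h mean minus the 18 h mean with its standard error (SE) from limma. Median sample intensities of the arrays lay between 513.1 and 653, against medians of 402.6 to 416.4 for negative control spots. The signal of 89.9% to 97.3% of probes was above that of 95% of the negative control spots. The arrays of a group correlated across probes at 0.99 to 0.993, except those of clone 7 at 72 h, at 0.951, where the standard deviation of the difference between arrays was 0.254 against 0.0932 to 0.118 in the other groups. Arrays of WT and clone 4 were extracted from their images on 1 day and those of clone 7 on another, so clone 7 and that day cannot be told apart. In bulk RNA, more cells of a kind and more RNA per cell cannot be told apart.

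The 135 rising probes moved from a median log2 ratio of -0.24 at 18 h to 0.39 at 72 h in WT. In clone 4 the median went from -0.03 to 1.07, and in clone 7 from 0.02 to 1.13. The medians of the lines thus lay nearer each other at 18 h than at 72 h. The median change was 0.59 in WT (range 0.17 to 2.08), 1.04 in clone 4 (0.41 to 3.09) and 1.11 in clone 7 (0.40 to 2.73), where the median over all table probes was 0.00, -0.01 and -0.02. A rise of at least 2-fold was measured for 13 probes in WT, 70 in clone 4 and 75 in clone 7.

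As a description, since the rule used these contrasts, limma called the rise at an adjusted p below 0.05 for 125 of the 135 in WT, where 3.99% of all array probes were called higher. It was called for all 135 in clone 4, with a background of 12.1%, and for all 135 in clone 7, with a background of 14.5%. The rule asks for a gap between the means of the times, so arrays that lay apart in time are part of the choice. For Z00063666-1 the WT arrays still overlapped, at -3.13 and -3.31 at 18 h and -1.70 and -3.54 at 72 h. Its place among the rising probes thus rests on 1 WT array. Measured by the scanner ratios instead of the table, 106 of the 135 reached 0.5 in every line.

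**Figure D1:**
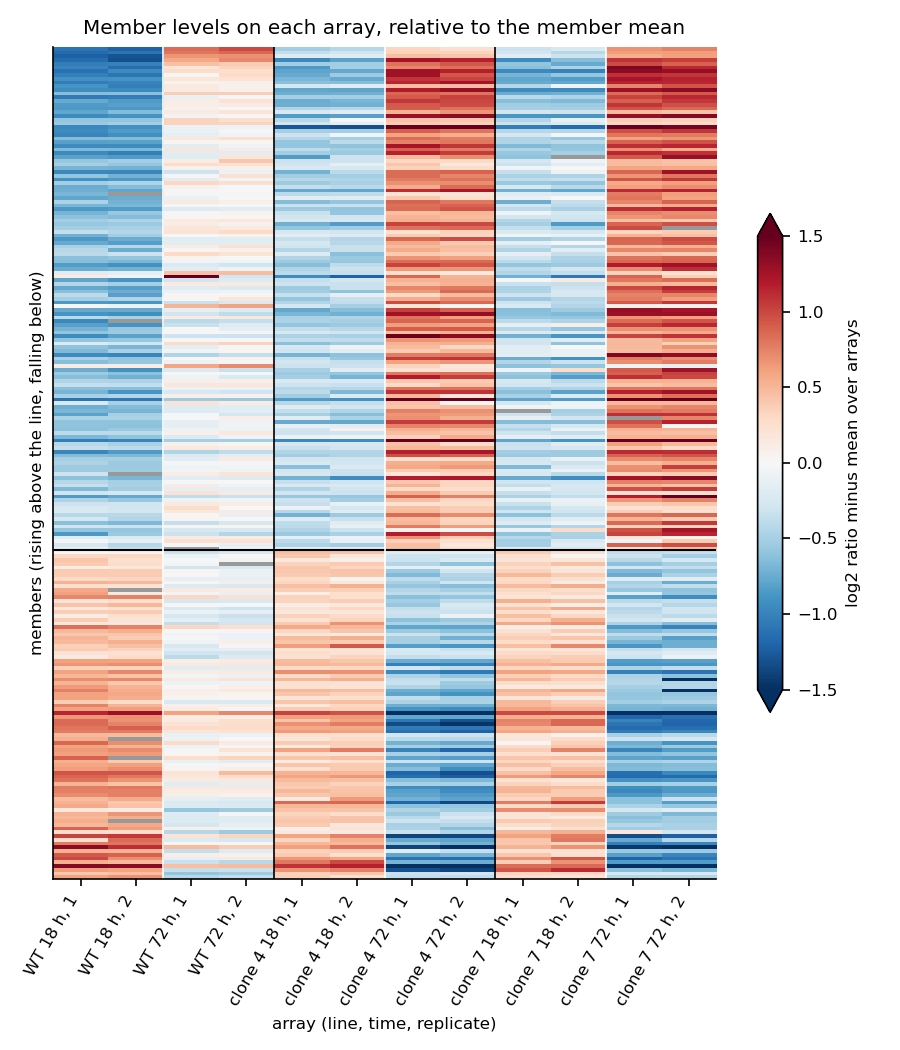
Log2 ratio of each of the 223 probes on each of the 12 arrays, minus the mean of that probe over arrays (colour, from -1.5 to 1.5). Columns are arrays by line, time and replicate, rows are probes ordered by their WT change, and grey cells are spots left out by the scanner's outlier mark. Rising probes (135, above the line) are mostly lowest at 18 h and highest at 72 h in the clones, and falling probes (88, below) mostly show the opposite order.

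Z00027126-1 came first among the rising probes and was far above the reference pool in every group. Its log2 ratios were 2.41 and 2.25 in WT at 18 h and 4.15 and 4.29 at 72 h, 2.6 and 2.76 then 4.81 and 4.73 in clone 4, and 2.62 and 2.93 then 4.65 and 4.60 in clone 7. The 72 h arrays of each line stood above all 18 h arrays, and at 18 h WT was slightly below the clones. It rose by 1.89 in WT, 2.09 in clone 4 and 1.85 in clone 7 (SE 0.10 each), or 3.70-fold, 4.26-fold and 3.60-fold.

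Z00026255-1 was also enriched over the pool throughout, with WT values of 1.56 and 1.41 then 2.74 and 2.89, clone 4 values of 1.69 and 2.05 then 3.29 and 3.38, and clone 7 values of 1.93 and 2.08 then 3.96 and 3.69. Groups at 18 h and 72 h did not overlap, and the clones were the higher at 72 h. The rise was 1.33, 1.46 and 1.82 in WT, clone 4 and clone 7 (SE 0.13 each). Z00030162-1 began below the pool and approached it, from -1.99 and -1.97 to -0.51 and -0.57 in WT, from -1.47 and -1.48 to -0.14 and -0.02 in clone 4, and from -1.55 and -1.71 to 0.03 and -0.07 in clone 7. Here the clones were higher than WT at both times, yet the rise was much alike at 1.44, 1.40 and 1.61 (SE 0.06 each).

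Z00000952-1 started at 1.24 and 1.17 in WT, 1.51 and 1.72 in clone 4 and 1.57 and 1.68 in clone 7. At 72 h it stood at 2.30 and 2.56 in WT against 3.53 and 3.2 in clone 4 and 3.36 and 3.34 in clone 7. The gap between clones and WT was wider at 72 h than at 18 h on these arrays, and the changes were 1.23, 1.75 and 1.73 (SE 0.12 each).

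Z00020794-1 showed the same widening from a lower start, since the lines were close at 18 h, at -2.49 and -2.33 in WT, -2.16 and -2.14 in clone 4 and -2.33 and -2.37 in clone 7. At 72 h WT reached -1.10 and -1.12, clone 4 -0.10 and -0.21, and clone 7 -0.03 and -0.07. The rises were 1.30, 1.99 and 2.30 (SE 0.06 each), or 2.47-fold, 3.98-fold and 4.93-fold. The following 10 rising probes, from Z00042556-1 (1.09, 1.75 and 2.01 in WT, clone 4 and clone 7) to Z00017898-1 (0.85, 1.27 and 1.15), each rose more in both clones than in WT.

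The 88 falling probes had a median log2 ratio to the reference pool at 18 h of 0.81 in WT, 0.78 in clone 4 and 0.70 in clone 7. At 72 h the medians were 0.21, -0.30 and -0.29. WT therefore stayed above the pool at the median while both clones passed below it. The median change was -0.55 in WT (range -1.03 to -0.30), -0.91 in clone 4 (-3.04 to -0.39) and -0.94 in clone 7 (-2.88 to -0.44). A fall of at least 2-fold was measured for 1 probe in WT and 39 in each clone.

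Again as a description, limma called the fall at an adjusted p below 0.05 for 84 of the 88 in WT, where 4.32% of array probes were called lower. It called 87 in clone 4, with a background of 16.9%, and 88 in clone 7, with a background of 18.9%. Arrays that lay apart in time are again part of the choice. By the scanner ratios, 61 of the 88 fell by at least 0.5 in every line.

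Z00007495-1, first among the falling probes, read 1.94 and 1.89 then 1.07 and 0.99 in WT, 2.20 and 2.39 then 0.71 and 0.67 in clone 4, and 1.77 and 2.08 then 0.57 and 0.57 in clone 7. The times did not overlap in any line, and the clones ended below WT. It fell by 0.89 in WT, 1.60 in clone 4 and 1.36 in clone 7 (SE 0.10 each). Z00034079-1 fell from 2.43 and 2.39 to 1.44 and 1.47 in WT, from 2.47 and 2.55 to 0.48 and 0.42 in clone 4, and from 2.74 and 2.92 to 1.17 and 1.11 in clone 7. Clone 4 ended lowest, and clone 7 was the higher of the clones at both times. The changes were -0.96, -2.06 and -1.69 (SE 0.06 each).

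Z00036340-1 held the lowest change in clone 4 of any table probe. WT went from 2.4 and 2.37 to 1.47 and 1.49, while clone 4 went from 2.11 and 2.19 to -0.71 and -1.08 and clone 7 from 1.86 and 1.87 to -0.71 and -1.01. All 72 h clone arrays were below the pool and all other arrays above it. The change was -0.90 in WT, -3.04 in clone 4 and -2.72 in clone 7 (SE 0.12 each), a fall of 1.87-fold, 8.25-fold and 6.59-fold.

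Z00063583-1 was below the pool throughout, at -0.16 and -0.13 then -0.90 and -0.95 in WT, -0.44 and -0.45 then -1.53 and -1.64 in clone 4, and -0.53 and -0.60 then -1.96 and -1.93 in clone 7. WT was highest at each time and clone 7 lowest, with changes of -0.79, -1.14 and -1.38 (SE 0.05 each). Z00051128-1 was among the first 3 falling probes by the table, with a WT change of -1.71 there, but its second WT array at 72 h carried an outlier mark and was left out of the scanner ratios. The remaining WT values were 1.65 and 1.53 at 18 h and 1.22 at 72 h, a change of -0.37 (SE 0.09). Its clone values went from 1.61 and 1.65 to 0.82 and 0.66 in clone 4 and from 1.61 and 1.70 to 0.65 and 0.76 in clone 7. The following 10 falling probes ran from Z00024721-1 (-0.82, -1.06 and -1.22 in WT, clone 4 and clone 7) to Z00055038-1 (-0.70, -0.75 and -0.86). Each fell further in both clones than in WT, although for Z00052949-1 the changes of -0.73, -0.75 and -0.75 (SE 0.07 each) were alike.

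**Figure D2:**
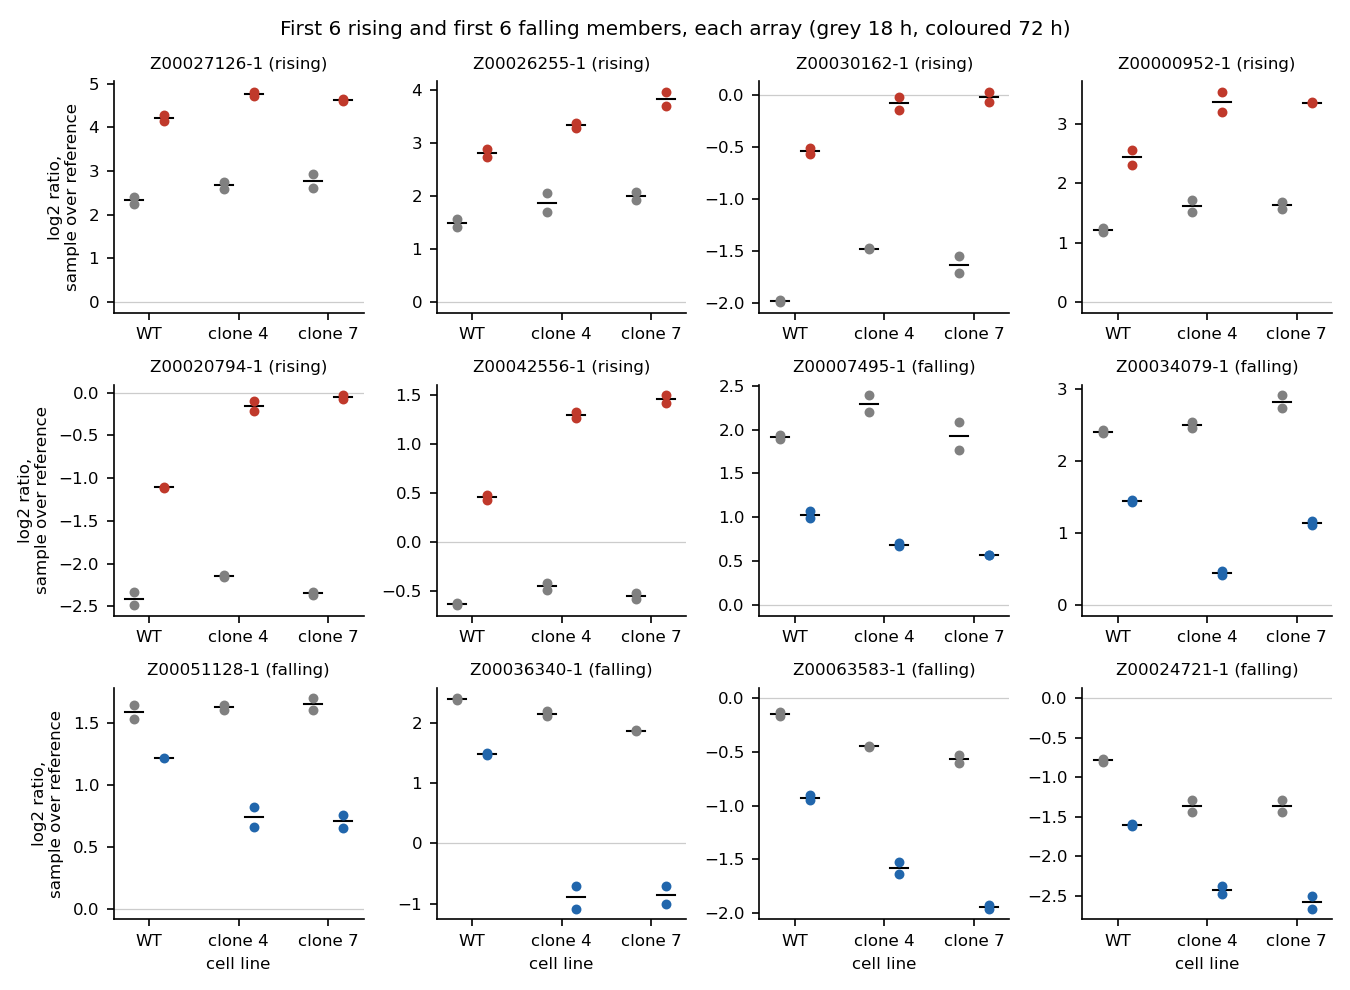
Log2 ratio of sample to reference pool (vertical axis, one scale per panel) on each array for the first 6 rising and first 6 falling probes, by cell line. Grey points are 18 h arrays, coloured points 72 h arrays and bars group means of 2 arrays (1 for WT at 72 h in Z00051128-1). Z00027126-1 rose by 1.89, 2.09 and 1.85 in WT, clone 4 and clone 7, whereas Z00036340-1 changed by -0.90 in WT and by -3.04 and -2.72 in the clones.

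The size of the change differed between lines more than its direction, which the rule had fixed. Among rising probes 114 of 135 rose more in both clones than in WT, 12 rose more in WT than in both clones and 9 had WT in between. The ratio of the mean clone change to the WT change had a median of 1.68 and was 2 or more for 46 probes. Among falling probes 78 of 88 fell more in both clones, 8 fell more in WT and 2 had WT in between, with a median ratio of 1.78 and 34 probes at 2 or more. Over all array probes limma also called more changes in the clones, 3.99% higher in WT against 12.1% in clone 4 and 14.5% in clone 7. The shares called lower were 4.32%, 16.9% and 18.9%. More called change in the clones was thus not particular to these members.

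The clone change minus the WT change was called by limma at an adjusted p below 0.05 for 86 rising probes, 81 positive and 5 negative, where 10.2% of array probes were called positive and 13.7% negative. It was called for 54 falling probes, 52 negative and 2 positive. These counts are descriptive because both sides of the difference entered the rule, and the clones share the WT arrays as their comparison. Over all table probes 28.0% were called in either direction. Across rising probes the clone 4 and clone 7 changes correlated at r = 0.935, against 0.216 for WT with clone 4 and 0.249 for WT with clone 7. Across falling probes the values were 0.935, 0.347 and 0.301. These are correlations across probes, which are not independent and were selected on these changes.

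**Figure D3:**
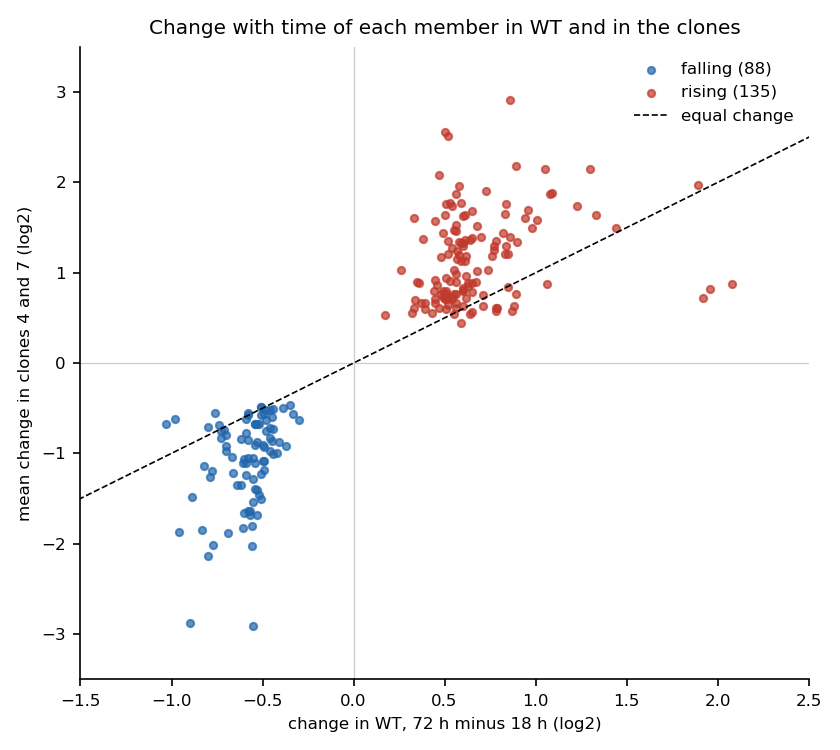
Change from 18 h to 72 h in WT (horizontal axis, log2) against the mean change in clones 4 and 7 (vertical axis, log2) for each rising (red, 135) and falling (blue, 88) probe, with a dashed line of equal change. Of the rising probes 114 rose more in both clones than in WT, and the 3 red points far below the dashed line rose by 1.92 to 2.08 in WT.

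At the median, clones and WT lay further apart at 72 h than at 18 h. Clone 4 and clone 7 were already above WT at 18 h for 113 and 108 of the 135 rising probes. At 72 h they were above it for 129 and 125. Of the 88 falling probes, 21 were above WT in each clone at 18 h, and 8 and 5 at 72 h. Among rising probes the median clone-minus-WT difference was 0.21 in clone 4 and 0.22 in clone 7 at 18 h, and 0.60 and 0.74 at 72 h. In the table, both clones exceeded WT by at least 1.5-fold for 7 rising probes at 18 h and 67 at 72 h. Among falling probes the median difference in clone 4 went from -0.19 at 18 h to -0.52 at 72 h, that in clone 7 from -0.17 to -0.53, and both clones were lower by at least 1.5-fold for 0 probes at 18 h and 39 at 72 h. The rule removed probes that differed by that much at both times, so these counts and medians are limited by the choice.

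Z00025577-1 had the highest ratio of clone to WT change among the rising probes, 5.06. Its WT values were -1.49 and -1.44 then -0.95 and -0.96, its clone 4 values -1.42 and -1.40 then 1.16 and 1.30, and its clone 7 values -1.24 and -1.33 then 1.14 and 1.22. The lines were close at 18 h, and only the clones passed the pool by 72 h. The changes were 0.50, 2.64 and 2.47 (SE 0.06 each). Z00000892-1 had the highest rise in clone 4, 3.09, against 2.73 in clone 7 and 0.86 in WT (SE 0.11 each), from 18 h values of -1.58 and -1.63 to 1.40 and 1.57 in clone 4. Z00030147-1 rose by 0.52 in WT and by 2.55 and 2.47 in the clones (SE 0.05 each). The falling counterpart, Z00056888-1, went from -0.16 and -0.02 to -0.70 and -0.58 in WT, from -0.28 and -0.34 to -3.23 and -3.28 in clone 4, and from -0.31 and -0.31 to -3.09 and -3.29 in clone 7. Its changes were -0.55, -2.94 and -2.88 (SE 0.07 each), and the 72 h clone arrays stood well below all others. These probes were singled out after their values were seen.

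A trio of rising probes went the other way, with a rise in WT about 4-fold and a smaller one in the clones. Z00002099-1 read -2.55 and -2.61 then -0.66 and -0.64 in WT, -1.51 and -1.5 then -0.87 and -0.90 in clone 4, and -1.49 and -1.63 then -0.77 and -0.71 in clone 7. WT was below both clones at 18 h and slightly above them at 72 h. Its changes were 1.92, 0.61 and 0.82 (SE 0.05 each). Z00025587-1 rose by 2.08, 0.76 and 0.98 (SE 0.07 each), from WT values of -0.24 and -0.35 against 0.35 and 0.44 in clone 4 and 0.55 and 0.64 in clone 7 at 18 h.

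Z00034825-1 rose by 1.96, 0.66 and 0.98 (SE 0.05 each), from WT values of -3.02 and -2.95 against -2.23 and -2.13 in clone 4 and -2.14 and -2.27 in clone 7. All 3 thus had the same arrangement, with WT lowest at 18 h, although they share no stretch of 24 bases. The sample channel alone rose in WT by 2.18, 2.17 and 2.17, and the reference channel by 0.08, -0.01 and 0.01. The trio was singled out after its values were seen. The falling probes with the most marked excess in WT were Z00034716-1, at -1.03 in WT and -0.68 in each clone (SE 0.05 each), and Z00010775-1, at -0.98, -0.69 and -0.56 (SE 0.04 each).

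Overlapping probes gave a further reading from the same RNA and arrays, though whether of the same transcript was not checked. Same-strand stretches of at least 24 shared bases linked members to other probes in 17 pairs, of which 2 joined members to each other. Outside the table, 12 probes overlapped 12 members, 9 rising and 3 falling. All 12 of them moved in the member's direction in every line, and 8 by at least 0.5 in every line. The median absolute difference from the member was 0.09 in WT, 0.09 in clone 4 and 0.14 in clone 7.

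In the set around Z00073717-1, the member read -3.01 and -2.98 then -2.35 and -2.30 in WT, -2.69 and -2.74 then -1.31 and -1.20 in clone 4, and -2.54 and -2.63 then -1.04 and -0.98 in clone 7. The probes Z00017400-1 and Z00072996-1, not used by the rule, gave much the same levels, such as -3.05 and -3.10 then -2.31 and -2.27 in WT for Z00017400-1. The member's changes of 0.68, 1.46 and 1.58 (SE 0.05 each) compare with 0.79, 1.52 and 1.58 (SE 0.05 each) and with 0.67, 1.49 and 1.5 (SE 0.07 each). Z00035148-1, which shares 36 bases with the member Z00057355-1, changed by 1.17, 2.10 and 2.27 against 1.05, 2.04 and 2.26.

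Z00060656-1 changed by 1.11, 1.53 and 1.48 (SE 0.05 each) and its partner Z00027205-1 by 0.98, 1.48 and 1.5 (SE 0.06 each). The probes differ outside their 26 shared bases. At 18 h Z00060656-1 read -0.9 and -0.88 in WT, -0.26 and -0.32 in clone 4 and -0.2 and -0.25 in clone 7. At 72 h it read 0.16 and 0.27, 1.18 and 1.3, and 1.23 and 1.27, so both clones stood above WT at both times. Z00018047-1 shares 59 bases with the member Z00073833-1, yet its WT rise was 0.22 (SE 0.09) against 0.53 (SE 0.10), while the clone rises were 1.43 and 1.58 against 1.61 and 1.93. The WT rise thus passed 0.5 at the member only, while the clone rises passed it at both probes. In every line the rise was smaller at Z00018047-1 than at the member.

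The falling member Z00064826-1 gave the widest disagreement. Its values were 1.51 and 1.54 then 0.96 and 1.03 in WT and 1.31 and 1.36 then 0.44 and 0.44 in clone 4, but 1.31 and 1.20 then 0.38 and -1.71 in clone 7. Its last array stood 2.10 below the other array of its group, and its clone 7 change was -1.92 (SE 0.50). The overlapping probe Z00023230-1 read 1.12 and 1.02 then 0.22 and 0.30 in clone 7, with changes of -0.53, -0.78 and -0.81 (SE 0.05 each) in WT, clone 4 and clone 7. The opposite-strand probe Z00035398-1 changed by 0.11 (SE 0.08), -0.01 (SE 0.06) and 0.22 (SE 0.06), with no fall of the size seen on the member's strand.

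**Figure D4:**
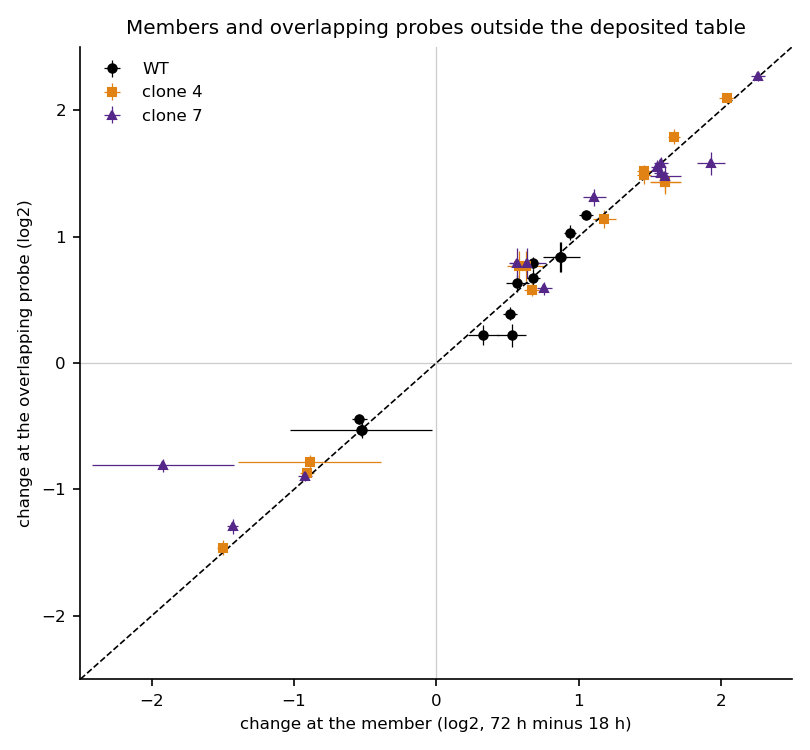
Change from 18 h to 72 h at each member (horizontal axis, log2) against that at a same-strand overlapping probe outside the deposited table (vertical axis, log2), by line, with bars of 1 SE from limma and a dashed line of equal change. All 12 outside probes moved the same way as their member, and the one point far left of the line is clone 7 in Z00064826-1 (-1.92 against -0.81).

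The members Z00006345-1 and Z00032620-1 share 53 bases and both had a saturated sample channel on both 72 h arrays of each clone. Z00032620-1 was saturated on both WT arrays at 72 h as well. Their rises there are lower limits, at least 1.55-fold in each clone for Z00006345-1, and at least 1.83-fold in WT, 1.5-fold in clone 4 and 1.49-fold in clone 7 for Z00032620-1. Both are counted among the 12 that rose more in WT than in both clones, which saturation leaves undecided for them. The overlapping probe Z00030491-1 was saturated on the same 4 clone arrays, so its rises of 0.77 and 0.79 in the clones are lower limits too, beside 0.84 in WT (SE 0.12). The reference channel of all 3 probes was saturated on all 12 arrays, so their levels against the pool are not known.

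The sample and reference channels were also followed apart. The sample channel moved in the same direction in all lines for all 135 rising and all 88 falling probes, but by at least 0.5 in every line for only 106 and 41 of them. Its median change in the rising probes was 0.70, 1.10 and 1.25 in WT, clone 4 and clone 7, where the reference channel moved by 0.10, 0.05 and 0.12. In the falling probes the sample medians were -0.51, -0.96 and -0.82 and the reference medians 0.06, -0.05 and 0.05.

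The reference channel, which holds the same RNA pool on every array, moved by at least 0.5 in some line for 7 rising and 2 falling probes. The falling pair, Z00052949-1 and Z00055038-1, had ratio changes in WT of -0.73 and -0.70, of which the sample channel gave -0.13 and -0.14 and the reference channel a rise of 0.60 and 0.58. In WT the reference channel of these probes thus moved more than the sample channel, and the cause was not tested. In clone 4 the sample channel of the same probes changed by -1.04 and -1.13 and the reference channel by -0.41 and -0.48. The ratio change in clone 4 was -0.75 for both probes. Among the rising probes, Z00039141-1 had a sample change of 0.94, 2.38 and 2.26 in WT, clone 4 and clone 7 and a reference change of 0.18, 0.67 and 0.77, so that the ratio gave the smaller rise.

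**Figure D5:**
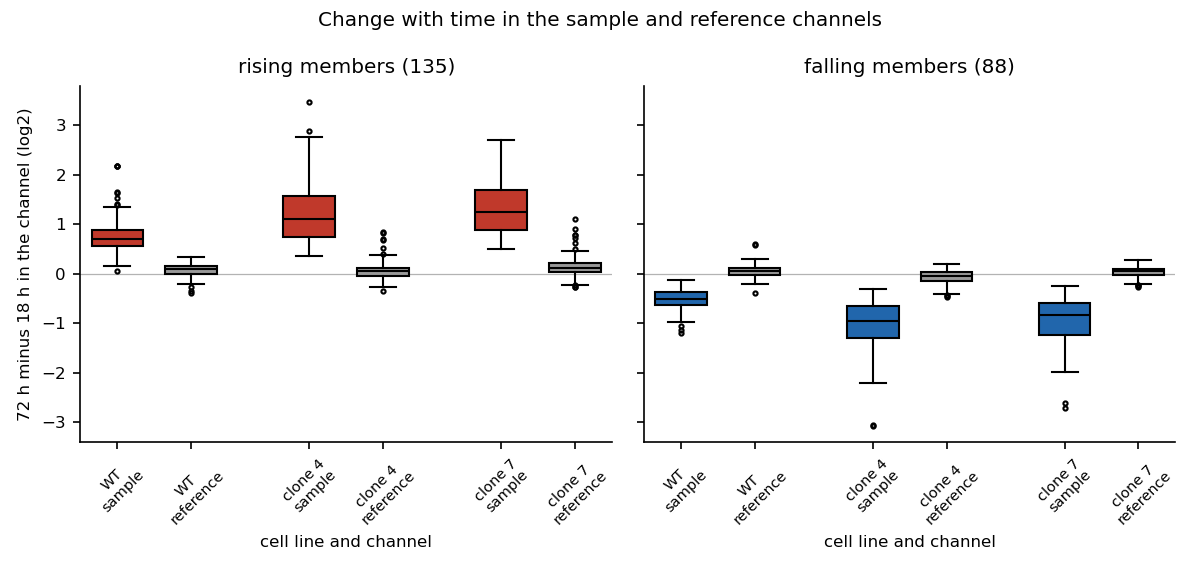
Change from 18 h to 72 h (vertical axis, log2) of the sample channel (coloured) and reference channel (grey) in each line, for 135 rising (left) and 88 falling (right) probes. Boxes span the quartiles with the median as a line, whiskers reach the last value within 1.5 box lengths and points lie beyond. Sample medians are 0.70, 1.10 and 1.25 on the left and -0.51, -0.96 and -0.82 on the right, and reference medians stay within 0.12 of 0.

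Clone 7 minus clone 4 over both times was tested because the time thresholds work within each line and set no condition on it. The step that dropped probes did use the clones' levels against WT, so the counts are also given without it. limma called it at an adjusted p below 0.05 for 48 of the 223 probes, where 5.59% of all array probes and 6.66% of table probes were called. Without the drop step it was called for 59 of 253 probes (23.3%). Of the rising probes 30 were called (22.2%), 24 higher in clone 7 and 6 lower, and of the falling probes 18 (20.5%), 6 higher and 12 lower. The median absolute difference was 0.09 in both sets, against 0.05 over all table probes, and the median sample intensity was 777 for rising and 883 for falling probes, against 596. Without the second clone 7 array at 72 h, 27 rising and 13 falling probes were called, and 39 of the 48 were called both ways. Leaving out the second clone 7 array at 18 h gave 26 calls, the second clone 4 array at 72 h 28, and the first and second clone 4 arrays at 18 h 29 and 31. The extraction day differs between the clones and cannot be told apart from them.

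The most marked differences between clones were in rising probes. Z00006521-1 read 0.75 and 0.88 then 1.27 and 1.18 in clone 4, and 1.12 and 1.49 then 2.16 and 2.44 in clone 7. Clone 7 was the higher at each time without overlap, by 0.78 (SE 0.08, limma adjusted p = 0.00279). Z00004876-1 read 1.10 and 1.18 then 2.56 and 2.59 in clone 4 against 1.65 and 1.69 then 3.2 and 3.13 in clone 7, a difference of 0.56 (SE 0.04, limma adjusted p = 0.000238), while its rise over time was 1.43 and 1.49. For this probe the clones lay apart in level by far more than their rises did.

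Z00022872-1 was higher in clone 7 by 0.50 (SE 0.05, limma adjusted p = 0.00262) and Z00025028-1 by 0.46 (SE 0.05, limma adjusted p = 0.0026). Z00016756-1 went the other way, at -0.35 (SE 0.06, limma adjusted p = 0.0143), from -1.71 and -1.94 then -0.32 and -0.29 in clone 4 and -2.11 and -2.28 then -0.60 and -0.68 in clone 7. Among falling probes, Z00034079-1 was higher in clone 7 by 0.51 (SE 0.04, limma adjusted p = 0.00106), with the values given above.

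The rule set no condition on the level against the pool or on sequence. Mean log2 ratios reached from -3.25 (Z00063666-1) to 5.65 (Z00049222-1) in the rising set and from -3.77 (Z00040764-1) to 5.37 (Z00034851-1) in the falling set. Z00049222-1 stood at 4.84 and 4.80 in WT at 18 h and at 5.46 and 5.83 at 72 h, reaching 6.56 and 6.95 in clone 7, far above the pool in every group. In clone 7 its second 18 h array was left out by an outlier mark. Rising probes above the reference pool went from 59 to 86 in WT, 67 to 102 in clone 4 and 68 to 102 in clone 7. Falling probes above it went from 65 to 52, 61 to 33 and 62 to 33. The pool level was crossed in all lines by 15 rising and 8 falling probes.

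GC content had a median of 41.7% in both sets (20.0% to 56.7% in the rising set and 26.7% to 61.7% in the falling set), against 43.3% over the table. AATAAA was present in 14 rising probes (10.4%) and 10 falling probes (11.4%), against 7.5% of table probes. On the other strand it was in 8.89% and 3.41%, against 3.62%. ATTTA, a motif of AU-rich elements in unstable transcripts, was in 8.89% of rising and 9.09% of falling probes as printed, against 7.85%, and in 8.89% and 5.68% on the other strand, against 8.54%. Both motifs can occur in 1 probe, and a match describes the printed letters only.

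The choice has a sharp edge that several probes lie close to. Just inside the rising threshold was Z00070077-1, with table changes of 0.508, 0.846 and 0.820 in WT, clone 4 and clone 7, and just outside was Z00008387-1, with 0.496, 0.723 and 0.509. Z00020547-1 (smallest change 0.509) and Z00064100-1 (0.510) were also just inside, and Z00030253-1 (0.496 in clone 4) and Z00035737-1 (0.495 in WT) just outside. On the falling side Z00022895-1, at -0.501, -0.501 and -0.573, was just inside and Z00014565-1, at -0.499, -0.501 and -0.498, just outside. Z00024368-1 (-0.502 in WT) and Z00005984-1 (-0.505 in clone 7) were inside, and Z00000508-1 (-0.499 in WT) and Z00052452-1 (-0.497 in clone 4) outside. In 13 rising probes and 1 falling probe the smallest of the 3 table changes was at least 1.

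On every array the sample signal of all 223 probes was marked as well above background, but so was that of 25644 of the 25674 table probes. The mark therefore does not set the members apart. Some members were dim, such as Z00016012-1, with a median sample intensity of 422 against array medians of 402.6 to 416.4 for negative control spots. Of the members, 8 rising and 5 falling probes had at least 1 array left out by an outlier mark. Z00032187-1 was one of these, with a WT rise of 0.82 in the table and 0.17 (SE 0.13) from the scanner values that were kept, 0.20 and -0.03 at 18 h and 0.25 at 72 h. Its rise in the clones was 0.54 and 0.52 (SE 0.11 each). In the clone 7 group at 72 h, 2 rising probes (1.48%) and 2 falling probes (2.27%) had arrays more than 0.5 apart, against 2.36% of table probes. The others beside Z00064826-1 and Z00063666-1 were Z00002721-1, at 0.76 and -0.01, and Z00022778-1, at 0.36 and -0.60.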

How the data were processed

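RNA of 12 ES cell samples was hybridised as Cy3 against a Cy5 pool on Agilent arrays. Spot intensities in the deposited scanner files were made with Agilent Feature Extraction A.7.5.1, per the file headers, and the authors' deposited LogRatio is log10 of red over green. The table deposited with the series is on a log10 scale with column medians of 2.99 to 3.00. Its scaling, and how its 25674 probes were picked, are not given in the sources used here. After centring each row over arrays it correlated at 0.966 to 0.994 with the deposited log10 ratio turned to sample over reference, and at 0.633 to 0.903 with the sample channel alone, so its values rise with the sample. Table values were turned from log10 to log2 only for the choice of probes. Table rows were matched to probes by feature number.

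Levels and tests come from the mean signal intensities of the deposited files. Background was corrected by normexp (offset 50), arrays were normalised by loess without control spots and outlier-marked spots, and 42006 probes were fitted in limma 3.58.1 (R 4.3.3) with 6 group means, 6 residual and 2.98 prior degrees of freedom. Benjamini-Hochberg adjustment ran over all probes at 0.05. With Cy3 always on the sample, dye effects cancel between groups but shift levels against the pool. The number of arrays limits the precision.

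The members and lists were chosen with earlier results of these data known. Probes named in full were the first 15 of each direction by their smallest table change, those sharing sequence, and the 3 on each side of the threshold. Others are said to have been chosen after their values were seen, as were the extremes of the clone comparison. Gene, marker and pathway lists need gene names and were not analysed here. Alternatives were the deposited ratio, the sample channel alone, other thresholds, a replicate block and each array left out. Same-numbered arrays mostly did not deviate together (15 pairs of groups, median r 0.00229, range -0.156 to 0.364), and the numbers were not taken as pairs. In 2 pairs of groups r was above 0.1, so some groups share deviations that the main fit does not model.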

Additional observations from a re-analysis of the deposited data

Results flagged for a closer look

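The change from 18 h to 72 h differed between the clones and WT, by limma's interaction at an adjusted p below 0.05, for 86 rising probes and 54 falling probes. Both sides of this difference were used in choosing the probes, so the counts are values of a description. Among them 5 rising probes had a negative difference. One, Z00032620-1, was saturated at 72 h in every line, so its order between lines is undecided. The others were the trio Z00002099-1, Z00025587-1 and Z00034825-1, and Z00027118-1 (0.78 in WT, 0.54 in clone 4 and 0.61 in clone 7, SE 0.04 each). Among the falling probes called by this interaction, 2 changed less in the clones than in WT, Z00010775-1 and Z00034716-1.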

How the results depend on the processing

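Of 142 counts under alternatives, 133 stayed within 1.5 times the reported count and 9 did not. With the sample channel alone, quantile normalised, WT changes were called for 137 members against 209, and the rule took 203 rising probes, of which 93 were among the 135, and 85 falling probes, of which only 39 were among the 88; the cause was not tested. A threshold of 1.5-fold in each line left 88 rising and 41 falling probes by construction. The clone 7 minus clone 4 difference was called for 17 members at an adjusted p below 0.01, against 48, and for 59 with the probes of the drop step kept in, an alternative chosen after seeing the data. Leaving out 1 array at a time gave 26 to 47 of these calls, 169 to 215 for WT time, 217 to 223 for clone 4, 218 to 223 for clone 7, 124 to 145 for the clone-minus-WT change, and 134 to 151 rising and 85 to 101 falling probes. The rule on scanner ratios took 110 rising (105 shared) and 73 falling (61 shared). With the replicate number as a block, 207, 222, 223, 141 and 41 members were called for the same 5 comparisons in the order WT, clone 4, clone 7, clone minus WT, and clone 7 minus clone 4. Of 599 values of the 30 named probes under alternatives, 0 reversed and 116 moved by more than the spread between arrays. These 30 lead the ordering by smallest table change on the same arrays, so a reversal was unlikely from the start. The 0 therefore says nothing about the other members. Signal over background limits dim probes, and 2 arrays a group limit every SE.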
